A study of Mus musculus with 27 samples.

Results

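Matrix metalloproteinases (MMPs), ADAMTS proteases, the related ADAMTS-like proteins and the tissue inhibitors of metalloproteinases (TIMPs) were followed in the mouse uterus after one injection of estradiol. Members were all genes whose name in the scanner files began with Mmp, Adamts or Timp followed by a digit, or with Adamtsl. This gave 47 genes on 80 of the 41174 gene probes of the array: 21 Mmp genes on 28 probes, 17 Adamts genes on 39, 5 Adamtsl genes on 7 and 4 Timp genes on 6. Of the 47 genes, 41 were bright enough to test, among 21868 genes tested in all: 17 Mmp, 15 Adamts, 5 Adamtsl and 4 Timp genes. The other 6, Adamts13, Adamts20, Mmp1a, Mmp13, Mmp20 and Mmp21, were well above background on at most 7 of the 27 arrays and are given no level.

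MMPs and ADAMTS proteases are zinc enzymes, most of them secreted as inactive precursors, that cut collagens, proteoglycans and other proteins of the extracellular matrix. TIMPs bind the active site of these enzymes and block it, and ADAMTS-like proteins share the ancillary domains of the ADAMTS family but lack its protease domain. The uterus remodels its matrix with every estrous cycle, and estradiol sets off swelling of the stroma within hours and growth of the epithelium within about a day.

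The mice were ovariectomised females of 8 weeks from 3 backgrounds, C57BL/6 (called B6 below), C3H and their F1 cross, so that all groups lacked ovaries. Each was given a single intraperitoneal injection, either of 17β-estradiol (E2) at 40.0 µg/kg or of the saline and ethanol vehicle, and E2-treated uteri were taken at 2 h or 24 h. No sampling time is stated for vehicle, and 1 vehicle group per strain served both time points. Each of the 9 groups had 3 arrays. Nothing in the labels says which animal an array came from, so the p-values cover the spread between arrays alone, and part of that may be technical.

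The whole uterus was used, so a change of level cannot be told apart from a change in the share of a cell type. The 5 uterine markers (Hoxa10, Hoxa11, Esr1, Pgr and Msx1) were well above background on arrays of every group. Between 72.4% and 79.4% of probes were well above background on each array. The arrays sat on 7 slides that mostly held 1 strain each, so slide can be separated from group in 7 of the 18 comparisons. For those, the value with slide as a term is given beside each member's printed change against vehicle whose call it ends or turns. Such values rest on few arrays. All B6 vehicle arrays sat on a slide whose only other array was B6 2 h replicate 1. The B6 value at 2 h is therefore that array less the vehicle mean, and the 24 h value passes through it. In F1 only vehicle replicate 3 shared a slide with the 2 h arrays, so slide and single array cannot be told apart there either. Markers of 2 other tissues varied between groups: the mean level of 5 adipocyte markers ran from 0.54 to 1.76 in the B6 vehicle arrays and from −3.15 to 0.50 in the C3H vehicle arrays, and liver-made transcripts are taken up with the plasma protein genes.

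All levels below are log2 processed signals relative to the 75th percentile of their array, and each change is a difference of such levels. A probe's level is compared across groups only, never with that of another probe. Unless another test is named, changes were tested with 1 limma model of the 9 groups and Benjamini-Hochberg adjustment over all 21868 genes, and "rose", "fell" or "called" means an adjusted p under 0.05.

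At 2 h, E2 moved both families in either direction. In B6 uteri 28 of the 41 tested members were called, where 56.2% of all genes tested were. Of these 13 rose (23.1% of all genes) and 15 fell (33.1%). In C3H uteri 27 were called against 60.3% of all genes, 12 of them higher (24.8%) and 15 lower (35.5%). F1 uteri gave 27 as well, against 59.2%, with 12 higher (23.6%) and 15 lower (35.5%). The members' median changes were −0.07, 0.01 and −0.16 in the order B6, C3H, F1, which is kept below, and those of all genes −0.08, −0.10 and −0.10. With no scaling between arrays the split became 13 higher and 10 lower for C3H, and 14 and 10 for F1.

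Large early rises came mainly from the ADAMTS side. In all 3 strains 10 members rose at 2 h, as did 18.3% of all genes tested. By at least 2-fold in each strain 7 rose, as did 5.04% of all genes: Adamts1, Adamts4, Adamts8, Adamts9, Adamtsl2, Mmp17 and Mmp19. In all 3 strains 12 fell (27.1% of all genes), and 4 of them by at least 2-fold (6.81%): Adamts5, Adamtsl1, Mmp11 and Mmp28. Another 8 were called in no strain and 11 in some strains or in mixed directions, for which no share of all genes was counted.

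At 24 h, against the same vehicle arrays, 32 members were called in B6 (68.0% of all genes), 13 higher (30.8%) and 19 lower (37.1%). C3H gave 29 (67.1%), 12 higher (27.1%) and 17 lower (40.1%). F1 gave 27 (68.5%), 12 higher (31.8%) and 15 lower (36.7%). The members' median changes of −0.33, −0.25 and −0.07 compare with −0.05, −0.16 and −0.03 for all genes. These splits depend on the scaling: centring arrays on their median moved the median of all genes to 0.18, 0.03 and 0.17, and the split became 17 and 13 for B6 and 15 and 11 for F1. Small falls at 24 h are therefore relative to the array's 75th percentile.

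In all 3 strains 11 members were higher at 24 h (23.0% of all genes), 6 of them by at least 2-fold (5.12%): Adamts2, Adamts9, Mmp7, Mmp17, Mmp19 and Timp1. In all 3 strains 13 were lower (29.0%), 4 of them by at least 2-fold (8.03%): Adamtsl1, Mmp10, Mmp11 and Timp3. At 24 h 6 members were called in no strain, and another 11 in some strains or in mixed directions, again with no share of all genes counted. Since 2 h and 24 h share their vehicle arrays, the changes at both times are set side by side below and no overlap between them is counted.

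**Figure D1:**
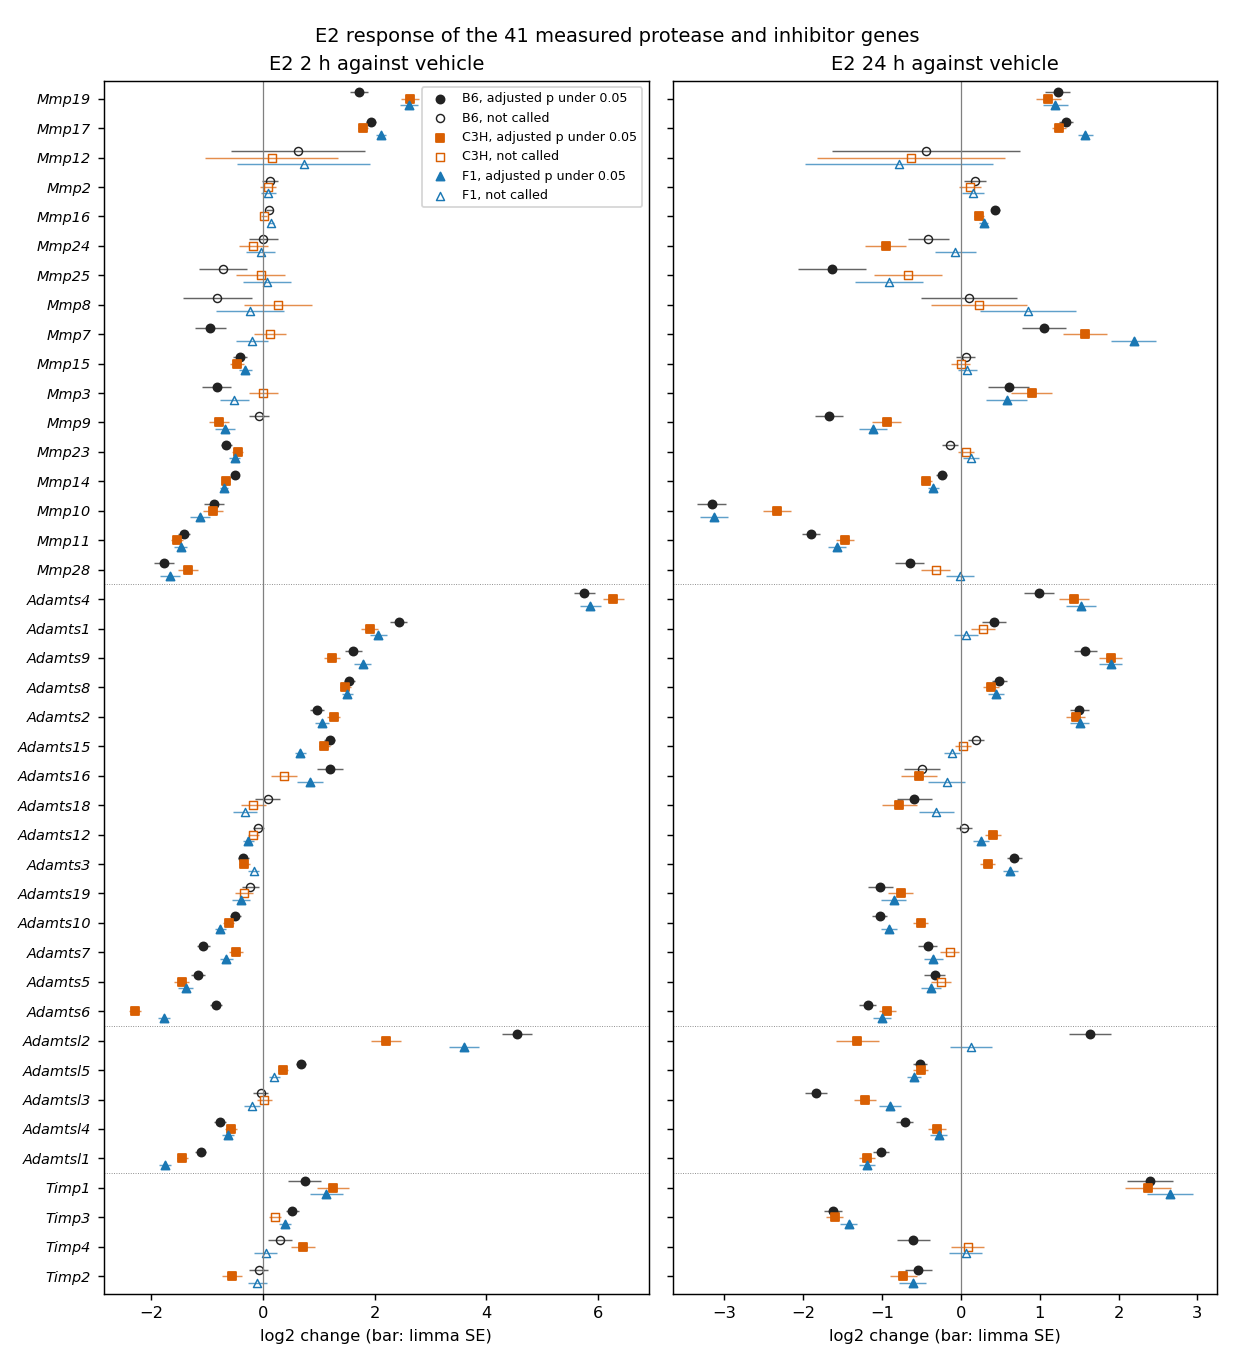
Change in log2 level of each of the 41 tested members against vehicle at 2 h and at 24 h after E2, with 1 point per strain (B6, C3H and F1) grouped by family; each point is a difference of means of 3 arrays, and its error bar is 1 standard error from the limma fit. Adamts4 stands furthest to the right at 2 h (5.75 to 6.27) and Mmp10 furthest to the left at 24 h (−3.16 to −2.33).

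The proteoglycan-cleaving ADAMTS enzymes swung widely at 2 h. Of the 6 tested (Adamts1, Adamts4, Adamts5, Adamts8, Adamts9 and Adamts15), 5 rose at 2 h in each strain and Adamts5 fell, with medians of 1.58, 1.36 and 1.65. Of all genes 23.1%, 24.8% and 23.6% rose and 33.1%, 35.5% and 35.5% fell. By 24 h, 4 were higher and 1 lower in B6 (30.8% and 37.1% of all genes), 3 were higher in C3H (27.1%), and F1 had 3 higher and 1 lower (31.8% and 36.7%).

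Adamts4, also called aggrecanase-1, cuts aggrecan and other large proteoglycans such as versican. Its probe lies at chr1:171229633-171229692 (mm7). In B6 its level was −3.72, −3.37 and −3.34 on the vehicle arrays, 1.98, 2.31 and 2.54 at 2 h, and −2.58, −2.57 and −2.31 at 24 h. In C3H it was −2.78, −2.51 and −2.71 in vehicle, 3.50, 3.63 and 3.66 at 2 h, and −1.07, −1.26 and −1.35 at 24 h. In F1 it was −3.06, −2.96 and −2.96, then 2.50, 3.14 and 2.95, then −0.91, −1.77 and −1.73. Every 2 h array was far above every vehicle array of its strain, and the 24 h arrays lay between, without overlap. The rise at 2 h was 53.9-fold in B6, 77-fold in C3H and 58-fold in F1 (log2 5.75, 6.27 and 5.86, SE 0.19, adjusted p 1.46e-15, 3.48e-16 and 1.12e-15). At 24 h Adamts4 was still 1.99-, 2.72- and 2.88-fold above vehicle (adjusted p 0.000112, 1.49e-06 and 5.85e-07), after a drop from 2 h of 27.1-, 28.3- and 20.2-fold. With slide as a term the B6 value at 24 h was 0.46 (SE 0.36, adjusted p 0.313), so that call was lost, while the 2 h value was 5.46.

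Adamts1, a versican-cleaving protease known for its part in ovulation, followed the same course (chr16:85790724-85790783, mm7). In B6 it stood at 1.95, 2.03 and 2.09 in vehicle, 4.38, 4.57 and 4.42 at 2 h, and 2.48, 2.19 and 2.66 at 24 h. In C3H the arrays read 3.51, 3.69 and 3.41, then 5.51, 5.40 and 5.42, then 3.90, 3.64 and 3.92. In F1 they read 2.90, 3.1 and 3.18, then 5.27, 5.08 and 5.04, then 3.55, 2.69 and 3.17. The 2 h arrays stood clear of the others in each strain, and in C3H and F1 the ranges at 24 h overlapped those of vehicle. The early rise was 5.4-, 3.75- and 4.19-fold (SE 0.15 on the log2 scale, adjusted p 2.86e-11, 1.1e-09 and 2.9e-10). At 24 h a difference of 0.42 was called in B6 (adjusted p 0.0209), but not without any 1 of 3 arrays, with 0.31 as the lowest value when B6 24 h replicate 3 was left out, nor with slide as a term (0.20). The values in C3H and F1 were 0.28 and 0.07, neither called.

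Adamts9, another versican-cleaving member, rose early and stayed up. Its B6 levels were −1.12, −0.87 and −0.78 in vehicle, 0.80, 0.53 and 0.74 at 2 h, and 0.65, 0.73 and 0.59 at 24 h. The C3H arrays gave −1.74, −1.57 and −1.70, then −0.80, −0.27 and −0.21, then 0.28, 0.26 and 0.16, and the F1 arrays −1.31, −1.37 and −1.46, then −0.02, 0.60 and 0.64, then 0.71, 0.37 and 0.49. No E2 array at either time reached down into the vehicle range of its strain. The rise was 3.06-, 2.37- and 3.45-fold at 2 h and 2.99-, 3.74- and 3.74-fold at 24 h (SE 0.15 on the log2 scale, adjusted p at most 5.99e-07 at 2 h and 1.34e-08 at 24 h). In C3H the level rose further between 2 h and 24 h on this probe (0.66, adjusted p 0.000782), but the mean of its probes gave −0.06 for that step.

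Adamts8 showed another pattern, up at 2 h and mostly back by 24 h. Its vehicle, 2 h and 24 h arrays read 0.41, 0.57 and 0.55, then 2.20, 2.03 and 1.96, then 0.97, 1.06 and 0.98 in B6. In C3H they read 0.54, 0.61 and 0.67, then 1.81, 2.21 and 2.24, then 1.14, 0.84 and 0.99, and in F1 0.43, 0.15 and 0.26, then 1.79, 1.67 and 1.90, then 0.66, 0.74 and 0.81. Both E2 groups lay above vehicle in each strain without overlap. The rises were 2.94-, 2.78- and 2.84-fold at 2 h (adjusted p at most 1.57e-10) and 1.41-, 1.3- and 1.37-fold at 24 h (adjusted p at most 0.00329). Adamts15, whose probe lies 61.7 kb from that of Adamts8 on chromosome 9, rose by 1.20, 1.10 and 0.67 on the log2 scale at 2 h (SE 0.10, adjusted p 2.12e-09, 6.42e-09 and 7.22e-06). Its values at 24 h, 0.19, 0.03 and −0.11, were not called.

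Adamts5, aggrecanase-2, went the other way. Its vehicle levels were 1.00, 1.35 and 1.30 in B6, 1.14, 1.38 and 1.28 in C3H and, for F1, 1.26, 1.28 and 1.46. At 2 h they were 0.35, −0.16 and −0.02 in B6, −0.12, −0.32 and −0.11 in C3H and, for F1, 0.03, −0.13 and −0.05. At 24 h they had returned to 0.81, 1.06 and 0.79, to 1.13, 1.04 and 0.87, and to 1.09, 0.78 and 0.98. All 2 h arrays were below all vehicle arrays of their strain, and at 24 h the C3H and F1 arrays still lay just below vehicle while the B6 arrays overlapped it. The early fall was 2.24-, 2.73- and 2.61-fold (SE 0.13 on the log2 scale, adjusted p 9.06e-08, 3.15e-09 and 5.64e-09). At 24 h values of −0.33 in B6 and −0.38 in F1 were called (adjusted p 0.0241 and 0.0106) and −0.25 in C3H was not. The B6 call was lost without any 1 of 4 arrays (−0.27 without vehicle replicate 2) and the F1 call without any 1 of 2 (−0.30 without 24 h replicate 2), and with slide as a term the B6 value was 0.16. Neither was called with arrays centred on their median (−0.09 and −0.18). Adamts1 and Adamts5 are neighbours on chromosome 16, with probes 67.6 kb apart (Adamts5 at chr16:85858359-85858419, mm7), and moved in opposite directions at 2 h.

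**Figure D2:**
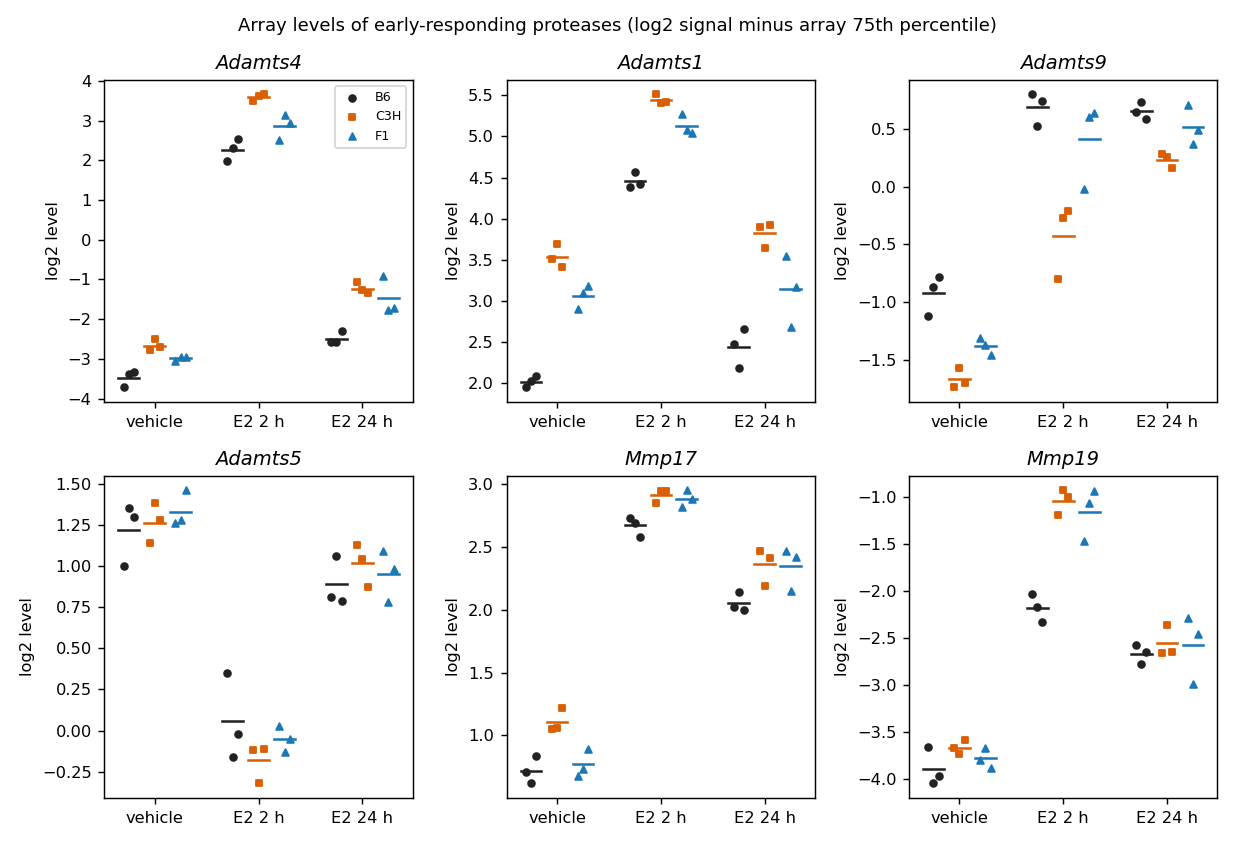
Log2 level relative to the array's 75th percentile on each of the 27 arrays for Adamts4, Adamts1, Adamts9, Adamts5, Mmp17 and Mmp19, by strain and by treatment (vehicle, E2 2 h, E2 24 h); points are arrays and short lines are means of 3 arrays. Adamts4 rises from between −3.72 and −2.51 to between 1.98 and 3.66 at 2 h and comes most of the way back, while Adamts5 dips at 2 h.

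The procollagen N-proteinases Adamts2 and Adamts3 trim the amino-terminal propeptides from fibrillar procollagens. Adamts2 stood at 2.98, 2.63 and 2.81 in B6 vehicle, 3.72, 3.86 and 3.73 at 2 h, and 4.36, 4.24 and 4.30 at 24 h. The C3H arrays read 2.97, 2.79 and 3.28, then 4.18, 4.18 and 4.48, then 4.66, 4.38 and 4.40, and the F1 arrays 2.96, 2.62 and 2.80, then 3.83, 3.79 and 3.95, then 4.37, 4.19 and 4.35. Both E2 groups were above vehicle in each strain with no overlap. Adamts2 rose by 1.95-, 2.41- and 2.09-fold at 2 h and 2.83-, 2.76- and 2.84-fold at 24 h (SE 0.12 on the log2 scale, adjusted p at most 7.34e-07 and 1.9e-09). The size depends on the probe: its 4 probes gave 2 h changes in B6 of 0.97 on the one used and 1.38, 2.15 and 4.08 on the others, and averaging them gave 2.14, 2.45 and 2.18 in the 3 strains. From 2 h to 24 h the probe used rose in B6 and F1 (0.53 and 0.44), whereas the mean of the probes gave −0.68 and −0.71.

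Adamts3 fell slightly at 2 h in B6 (−0.35, adjusted p 0.00557) and C3H (−0.33, adjusted p 0.00902), with −0.16 in F1 not called, and rose at 24 h in all 3 strains (0.68, 0.34 and 0.63). With slide as a term the B6 value at 2 h was −0.19 (adjusted p 0.319), so that call was lost. Here too the probes disagree at 2 h: averaging them turned the C3H value to 0.27, and the C3H call was lost when arrays were centred on their median (−0.20).

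Adamts6 and Adamts10 encode a pair of related proteases that act on fibrillin microfibrils. Adamts6 levels in B6 were −2.54, −2.29 and −2.44 in vehicle, −3.05, −3.38 and −3.32 at 2 h, and −3.47, −3.66 and −3.69 at 24 h. In C3H they were −2.13, −2.13 and −2.18, then −4.24, −4.52 and −4.54, then −3.06, −2.95 and −3.21. In F1 they were −2.23, −2.08 and −2.26, then −3.86, −4.19 and −3.83, then −3.28, −3.19 and −3.08. E2 arrays were below vehicle arrays in each strain without overlap, and the 2 h level was lower in C3H and F1 than in B6 on every array. The fall at 2 h was 1.77-fold in B6, 4.88-fold in C3H and 3.42-fold in F1 (SE 0.11 on the log2 scale, adjusted p 1.79e-06, 4.09e-13 and 1.83e-11). At 24 h it was 2.27-, 1.9- and 2-fold. Between 2 h and 24 h Adamts6 went up by 1.36 in C3H and 0.78 in F1 and down by 0.36 in B6, the last not called without B6 2 h replicate 1 (−0.26).

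Adamts10 fell by 0.49, 0.61 and 0.76 on the log2 scale at 2 h (adjusted p at most 0.000229) and by 1.03, 0.51 and 0.91 at 24 h (adjusted p at most 0.000142). With slide as a term the B6 value at 2 h was −0.34 (adjusted p 0.0528).

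Adamts7, which binds cartilage oligomeric matrix protein, fell by 1.06, 0.48 and 0.65 at 2 h and was lower at 24 h in B6 and F1 (−0.42 and −0.35) with −0.14 in C3H not called. Both 24 h calls were lost under other settings: the B6 value was 0.03 with slide as a term (SE 0.17, adjusted p 0.913), and median centring gave −0.18 and −0.14, neither called. Adamts19 fell by 1.02, 0.76 and 0.85 at 24 h (adjusted p at most 0.000241), but with slide as a term the B6 value was −0.55 (adjusted p 0.104). Adamts16 rose at 2 h in B6 and F1 (1.20 and 0.84), with 0.38 in C3H not called, and with slide as a term the F1 value was 0.78 (adjusted p 0.0629). Adamts12 fell at 2 h in F1 (−0.26) and rose at 24 h in C3H and F1 (0.41 and 0.26), and Adamts18 fell at 24 h in B6 and C3H (−0.59 and −0.78), with the other values of both not called. Several of these calls were lost when single arrays were left out: both F1 values of Adamts12 without F1 vehicle arrays (−0.19 without replicate 3 at 2 h, 0.19 without replicate 2 at 24 h) and the B6 value of Adamts18 without B6 vehicle replicate 3 (−0.50). The 2 h value of Adamts12 (−0.13) and the B6 value of Adamts18 (−0.35) were not called with median centring, and the C3H value of Adamts18 was −1.18 without 24 h replicate 1.

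Among the ADAMTS-like genes, 4 of 5 fell in each of B6 and F1 at 24 h (37.1% and 36.7% of all genes), and all 5 in C3H (40.1%). At 2 h 2, 2 and 1 rose (23.1%, 24.8% and 23.6%) and 2 fell in each strain (33.1%, 35.5% and 35.5%). Adamtsl2, whose protein binds fibrillin and a latent TGF-beta binding protein, had the largest 2 h rise after Adamts4 in B6 and F1. On B6 arrays it stood at −6.02, −6.32 and −5.31 in vehicle, −1.0, −1.52 and −1.49 at 2 h, and −4.44, −4.25 and −4.05 at 24 h. On C3H arrays it stood at −3.01, −3.00 and −3.17, then −0.98, −0.71 and −0.86, then −4.17, −4.47 and −4.47. On F1 arrays it stood at −4.91, −4.45 and −3.67, then −1.13, −0.48 and −0.63, then −3.98, −4.58 and −4.09. The 2 h and 24 h levels were close between strains, with means from −1.33 to −0.75 and from −4.37 to −4.22, whereas vehicle means spread from −5.88 in B6 through −4.34 in F1 to −3.06 in C3H. The early rise was accordingly 23.4-fold in B6, 4.62-fold in C3H and 12.1-fold in F1 (SE 0.27 on the log2 scale, adjusted p 9.39e-12, 4.46e-07 and 2.97e-10). At 24 h Adamtsl2 was 3.11-fold above vehicle in B6 (adjusted p 1.66e-05), 2.48-fold below it in C3H (adjusted p 0.000242) and at 0.13 in F1, not called. Since the B6 vehicle signal was dim, these sizes depend on the background step: with the normexp correction the B6 changes were 2.91 at 2 h and 0.64 at 24 h, both still called.

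Adamtsl1, also called punctin, fell in all 3 strains at both times. Its levels in vehicle, at 2 h and at 24 h were −1.71, −1.35 and −1.35, then −2.51, −2.54 and −2.71, then −2.38, −2.56 and −2.50 in B6. In C3H they were −1.54, −1.49 and −1.44, then −2.99, −2.94 and −2.86, then −2.61, −2.72 and −2.71, and in F1 −1.41, −1.84 and −1.81, then −3.31, −3.50 and −3.51, then −2.80, −2.90 and −2.93. Neither E2 group overlapped vehicle in any strain. The falls were 2.16-, 2.72- and 3.37-fold at 2 h and 2.01-, 2.28- and 2.28-fold at 24 h (adjusted p at most 1.2e-08 and 3.18e-08).

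Adamtsl3 was called at 24 h and not at 2 h. Its B6 levels were −3.49, −3.58 and −3.49 in vehicle, −3.54, −3.55 and −3.57 at 2 h, and −5.43, −5.18 and −5.46 at 24 h. The C3H arrays read −2.95, −2.95 and −2.86, then −2.91, −3.13 and −2.63, then −4.12, −3.99 and −4.27, and the F1 arrays −3.34, −3.71 and −3.50, then −3.65, −3.73 and −3.73, then −4.56, −4.00 and −4.69. Vehicle and 2 h ranges overlapped in each strain, and the 24 h arrays were below both. The 2 h values of −0.04, 0.03 and −0.19 were not called, and the falls at 24 h were 3.56-, 2.31- and 1.87-fold (adjusted p 3.65e-10, 2.56e-07 and 9.77e-06). Adamtsl4 fell at both times (−0.77, −0.57 and −0.62 at 2 h, −0.71, −0.30 and −0.28 at 24 h), though with median centring the C3H and F1 values at 24 h were −0.11 and −0.07, neither called. Adamtsl5 rose in B6 and C3H at 2 h (0.68 and 0.36) and fell in all 3 strains at 24 h (−0.52, −0.51 and −0.59), on the brightest of its 3 probes. Another probe gave 2.36, 2.08 and 1.98 at 2 h and was higher at 24 h in B6 and F1 (0.62 and 0.77). The remaining one gave 0.36, 0.28 and 0.02 at 2 h, not called, and −0.54, −0.34 and −0.56 at 24 h, called in B6 and F1.

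Of the 17 tested MMP genes 2 rose at 2 h in each strain (23.1%, 24.8% and 23.6% of all genes), and 8, 7 and 7 fell (33.1%, 35.5% and 35.5%), with median changes of −0.49, −0.04 and −0.23. At 24 h 5 rose in each strain (30.8%, 27.1% and 31.8%) and 6, 5 and 4 fell (37.1%, 40.1% and 36.7%). In the genome 8 of the 21 MMP genes lie in one cluster on chromosome 9, with probes from 7280046 to 7695493 (mm7), a stretch of 415 kb, in the order Mmp13, Mmp12, Mmp3, Mmp1a, Mmp10, Mmp8, Mmp20 and Mmp7. Of these, 5 were bright enough to test. Promoter sequences were read from RefSeq (GRCm38.p6), which held 32 of the 47 members. In the 250 bases before the start, the AP-1 motif TGANTCA (searched on both strands) was in 7 of those 32 genes, against 7.82% of 27025 genes, and all 7 belong to the chromosome 9 cluster. They are shown because, of the genes with the motif that were tested, Mmp10 fell at 24 h in each strain while Mmp3 and Mmp7 rose. Mmp12 was tested and not called, and Mmp1a, Mmp13 and Mmp20 were too dim to test. RefSeq gives Mmp7 and Mmp12 a pair of start sites each, and only 1 window of each gene held the motif: the other windows, chr9:7692091-7692340 for Mmp7 and chr9:7344147-7344396 for Mmp12, had no match. Each line gives the plus strand from 5′ to 3′, with the motif in capitals.

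Mmp13, chr9:7272459-7272505: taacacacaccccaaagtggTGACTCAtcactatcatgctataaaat

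Mmp12, chr9:7347310-7347356: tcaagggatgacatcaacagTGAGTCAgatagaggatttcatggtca

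Mmp3, chr9:7445756-7445802: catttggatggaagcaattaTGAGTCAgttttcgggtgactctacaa

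Mmp1a, chr9:7464048-7464094: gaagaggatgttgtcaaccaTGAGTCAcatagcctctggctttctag

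Mmp10, chr9:7502259-7502305: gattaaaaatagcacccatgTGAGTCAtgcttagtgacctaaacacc

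Mmp20, chr9:7628116-7628162: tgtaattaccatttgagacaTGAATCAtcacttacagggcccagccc

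Mmp7, chr9:7692007-7692053: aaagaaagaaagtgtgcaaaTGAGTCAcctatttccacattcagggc

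Counted from the start, the motif's first base was at −63 in Mmp10 and in Mmp7, at −46 in Mmp3, −44 in Mmp12, −35 in Mmp13, −73 in Mmp1a and −95 in Mmp20. A match of letters describes the sequence and does not show that a factor binds there. The eighth gene of the cluster, Mmp8, had no match in this window.

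Mmp10, stromelysin-2, showed the deepest fall against vehicle of any member at 24 h (probe at chr9:7508134-7508193, mm7). In B6 its level was −1.62, −1.17 and −1.34 in vehicle, −2.46, −2.25 and −2.03 at 2 h, and −4.67, −4.54 and −4.41 at 24 h. In C3H it was −2.18, −1.97 and −2.06, then −3.01, −2.83 and −3.04, then −4.35, −4.23 and −4.62. In F1 it was −1.22, −1.75 and −1.67, then −2.61, −2.66 and −2.76, then −5.15, −4.62 and −4.26. The 3 groups of each strain stepped down without overlap. The fall was 1.82-, 1.85- and 2.19-fold at 2 h (adjusted p 0.00032, 0.00023 and 1.38e-05) and 8.94-, 5.02- and 8.77-fold at 24 h (SE 0.18 on the log2 scale, adjusted p 3.44e-12, 6.83e-10 and 5.61e-12).

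Mmp7, or matrilysin, an enzyme made by glandular epithelia, was higher at 24 h. Its levels in B6 were −3.81, −3.55 and −2.91 in vehicle, −4.45, −4.26 and −4.40 at 2 h, and −2.17, −2.54 and −2.40 at 24 h. In C3H they were −4.58, −4.49 and −4.31, then −4.43, −4.16 and −4.39, then −2.88, −2.69 and −3.09, and in F1 −3.48, −4.20 and −4.89, then −4.21, −4.30 and −4.62, then −2.08, −2.52 and −1.4. All 24 h arrays were above the vehicle and 2 h arrays of their strain, and the F1 vehicle arrays were widely spread. The rise at 24 h was 2.08-, 2.98- and 4.57-fold (SE 0.28 on the log2 scale, adjusted p 0.00261, 6.26e-05 and 8.71e-07), and with slide as a term the B6 value was 0.95 (SE 0.49, adjusted p 0.124). At 2 h a value of −0.94 was called in B6 (adjusted p 0.00758), though not without B6 vehicle replicate 3 (−0.69), and 0.13 and −0.19 in C3H and F1 were not called. The 5 epithelial markers (Krt8, Krt18, Krt19, Cdh1 and Epcam) rose together at 24 h, 5 of 5 in each strain, with medians of 1.19, 1.06 and 1.14. Of all genes 30.8%, 27.1% and 31.8% rose at that time. The mean level of these 5 markers went from between 3.45 and 3.77 in vehicle to between 4.53 and 4.93 at 24 h. Their part in the Mmp7 result was not tested.

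Mmp3, stromelysin-1, fell at 2 h in B6 (−0.82, adjusted p 0.0101) and rose at 24 h by 0.61, 0.90 and 0.58 (SE 0.26, adjusted p 0.0414, 0.00419 and 0.0494). With slide as a term the B6 values were −0.58 at 2 h (adjusted p 0.259) and 1.02 at 24 h (SE 0.52, adjusted p 0.117), neither called. The 2 h value was also not called without B6 2 h replicate 3 (−0.60), and at 24 h the B6 value was not called without any 1 of 3 arrays (0.43 without B6 vehicle replicate 2) nor the F1 value without any 1 of 17 (0.38 without F1 24 h replicate 1). Mmp12, macrophage elastase, scattered between arrays of one group, for example 0.17, −3.57 and −3.97 at 2 h in B6, and with an SE of 1.19 no change of it was called. The 6 macrophage markers were at mean levels of 1.53 to 2.22 on the B6 vehicle arrays and of 1.09 to 1.67 on the B6 2 h arrays. Mmp8, the neutrophil collagenase, was well above background on 9 of 27 arrays and was not called at either time.

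The gelatinases differed. Mmp2, known chiefly from fibroblasts, was not called in any strain at either time, with 0.13, 0.09 and 0.10 at 2 h and 0.18, 0.12 and 0.16 at 24 h (SE 0.14). Mmp9 fell by 1.67, 0.94 and 1.11 on the log2 scale at 24 h, or 3.18-, 1.92- and 2.16-fold (SE 0.18, adjusted p 7.76e-08, 0.000145 and 1.96e-05), and by 1.10 in B6 with slide as a term (adjusted p 0.00531). At 2 h Mmp9 had fallen in C3H (−0.79) and F1 (−0.68), with −0.07 in B6 not called, and the F1 value (−0.45) was not called with no scaling between arrays. Neutrophils are known carriers of Mmp9 protein. Of 5 tested neutrophil genes, 1 rose in B6 (30.8% of all genes) and 2 in each of C3H and F1 (27.1% and 31.8%) at 24 h. Their mean level ran from −4.79 to −2.97 over the vehicle arrays and from −4.01 to −1.94 over the 24 h arrays, with Elane not well above background on any array.

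Mmp11 and Mmp28 belong to the secreted MMPs that furin-type enzymes activate inside the cell. Mmp11, stromelysin-3, stood at 3.68, 3.88 and 3.66 in B6 vehicle, 2.22, 2.38 and 2.40 at 2 h, and 1.89, 1.76 and 1.88 at 24 h. The C3H arrays read 3.99, 3.91 and 3.69, then 2.43, 2.29 and 2.25, then 2.44, 2.38 and 2.35, and the F1 arrays 3.84, 3.73 and 3.98, then 2.65, 2.32 and 2.18, then 2.30, 2.11 and 2.42. Every E2 array lay more than 1 log2 unit below the vehicle arrays of its strain. Mmp11 fell by 2.65-, 2.91- and 2.77-fold at 2 h and 3.73-, 2.78- and 2.97-fold at 24 h (SE 0.11 on the log2 scale, adjusted p at most 5.98e-10 and 3.67e-10).

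Mmp28, epilysin, fell early and came back. Its vehicle levels were −3.75, −2.81 and −3.03 in B6, −3.30, −3.47 and −3.69 in C3H and, for F1, −3.91, −3.56 and −3.44. At 2 h they were −4.94, −4.89 and −5.07 in B6, −4.71, −4.92 and −4.84 in C3H and, for F1, −5.31, −5.25 and −5.32. At 24 h they were −3.67, −3.80 and −4.08, then −3.60, −3.96 and −3.87, then −3.57, −3.72 and −3.64. The 2 h arrays were the lowest in each strain, and the 24 h arrays overlapped vehicle. The early fall was 3.41-, 2.52- and 3.16-fold (SE 0.18 on the log2 scale, adjusted p 2.9e-08, 1.47e-06 and 6.24e-08). At 24 h −0.65 was called in B6 (adjusted p 0.00274), but not with slide as a term (−0.49), and −0.32 and −0.01 in C3H and F1 were not called.

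Mmp17, a membrane-type MMP held by a lipid anchor, rose at both times (probe at chr5:128845791-128845850, mm7). In B6 it stood at 0.71, 0.62 and 0.84 in vehicle, 2.73, 2.69 and 2.58 at 2 h, and 2.02, 2.14 and 2.00 at 24 h. In C3H the arrays read 1.05, 1.06 and 1.22, then 2.85, 2.94 and 2.94, then 2.47, 2.19 and 2.41, and in F1 0.68, 0.73 and 0.89, then 2.82, 2.95 and 2.88, then 2.47, 2.15 and 2.42. The order vehicle, 24 h, 2 h held in each strain without overlap. The rises were 3.85-, 3.48- and 4.34-fold at 2 h and 2.51-, 2.38- and 2.99-fold at 24 h (SE 0.09 on the log2 scale, adjusted p at most 5.95e-13 and 2.38e-10).

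Mmp19, a secreted MMP with broad substrates, also rose at both times (probe at chr10:128300933-128300992, mm7). Its B6 levels were −3.66, −4.05 and −3.97 in vehicle, −2.03, −2.17 and −2.33 at 2 h, and −2.58, −2.78 and −2.65 at 24 h. In C3H they were −3.67, −3.74 and −3.59, then −1.19, −0.93 and −1.0, then −2.66, −2.36 and −2.65, and in F1 −3.80, −3.67 and −3.89, then −1.47, −1.07 and −0.94, then −2.29, −2.99 and −2.46. Vehicle ranges were alike in the 3 strains, while at 2 h every C3H and F1 array was above every B6 array. The rises were 3.3-, 6.17- and 6.17-fold at 2 h (SE 0.16 on the log2 scale, adjusted p 7.37e-09, 1.08e-11 and 9.8e-12) and 2.34-, 2.16- and 2.3-fold at 24 h (adjusted p at most 3.25e-06).

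Mmp14, the transmembrane MT1-MMP that activates pro-Mmp2 on the cell surface, fell by 0.49, 0.65 and 0.69 on the log2 scale at 2 h (SE 0.07, adjusted p at most 7.44e-06). At 24 h it was lower by 0.24, 0.44 and 0.35, but centring arrays on their median gave −0.00 in B6 and −0.15 in F1, neither called. Its array values are given with the strains below. Mmp15 and Mmp23 fell at 2 h in each strain (−0.41, −0.46 and −0.31 for Mmp15, and −0.65, −0.45 and −0.50 for Mmp23) and were not called at 24 h. The F1 value of Mmp15 was not called without any 1 of 3 arrays (−0.23 without F1 vehicle replicate 2), and with slide as a term Mmp15 was not called in B6 (−0.41, adjusted p 0.0694) or F1 (−0.27, adjusted p 0.218). With no scaling between arrays the 2 h values of Mmp15 (−0.33, −0.31 and −0.08) and those of Mmp23 in C3H and F1 (−0.29 and −0.27) were not called. Mmp16 rose at 24 h (0.44, 0.23 and 0.29), and Mmp24 fell at 24 h in C3H (−0.95, adjusted p 0.00281), with −0.41 and −0.07 in B6 and F1 not called.

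The 4 TIMP genes parted company. Timp1, a secreted inhibitor that many cytokines induce, was the most raised of the TIMPs (probe at chrX:19307699-19307758, mm7). In B6 it stood at 0.19, −1.14 and −0.92 in vehicle, 0.91, −0.23 and −0.31 at 2 h, and 1.79, 1.89 and 1.64 at 24 h. In C3H the arrays read −0.59, −0.88 and −0.30, then 0.53, 0.71 and 0.77, then 1.78, 1.86 and 1.69, and in F1 −0.56, −0.83 and −1.05, then 0.18, 0.30 and 0.47, then 2.07, 1.60 and 1.82. C3H and F1 climbed from vehicle to 2 h to 24 h without overlap, while in B6 replicate 1 of both vehicle and 2 h was high and those groups overlapped. At 24 h Timp1 was 5.29-, 5.16- and 6.26-fold above vehicle (SE 0.29 on the log2 scale, adjusted p 2.79e-07, 4.8e-07 and 8e-08). At 2 h it had risen by 1.26 in C3H and 1.14 in F1 (adjusted p 0.000797 and 0.00193). The B6 value at 2 h, 0.75, had an adjusted p of 0.0336. It was not called without 2 h replicate 1 (0.35), vehicle replicate 2 (0.49) or vehicle replicate 3 (0.60), and it was 1.15 without vehicle replicate 1. The B6 vehicle arrays shared a slide with 2 h replicate 1 alone. With slide as a term the B6 change at 2 h was 1.53, which is that high array less the vehicle mean. The 24 h value with slide as a term, 3.65, passes through the same array. The other 2 Timp1 probes gave 24 h changes of 2.59 to 3.13 and 2.66 to 3.05.

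Timp3, the inhibitor that binds to the matrix and blocks several ADAMTS enzymes, fell late (probe at chr10:85907162-85907221, mm7). In B6 its level was 4.98, 5.39 and 5.41 in vehicle, 5.79, 5.81 and 5.78 at 2 h, and 3.81, 3.59 and 3.53 at 24 h. In C3H it was 6.27, 6.30 and 6.25, then 6.42, 6.44 and 6.63, then 4.84, 4.54 and 4.63. In F1 it was 5.67, 5.72 and 5.86, then 6.19, 6.15 and 6.10, then 4.50, 4.21 and 4.28. In each strain the 24 h arrays were lowest and the 2 h arrays highest, without overlap. The fall at 24 h was 3.07-, 3.04- and 2.67-fold (SE 0.11 on the log2 scale, adjusted p 3.22e-11, 7.89e-11 and 3.01e-10). The small rise at 2 h was called in B6 (0.53, adjusted p 0.000232) and F1 (0.40, adjusted p 0.00298), with 0.22 in C3H not called, and the F1 value was lost with slide as a term (0.29, adjusted p 0.121).

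Timp2, which both inhibits MMPs and helps MT1-MMP to activate pro-Mmp2, changed little. Its vehicle, 2 h and 24 h levels were 6.54, 7.0 and 7.14, then 6.65, 6.93 and 6.89, then 6.36, 6.15 and 6.55 in B6. In C3H they were 6.97, 7.24 and 6.89, then 6.69, 6.36 and 6.39, then 6.35, 6.23 and 6.34, and in F1 6.49, 6.87 and 7.14, then 7.0, 6.58 and 6.62, then 6.37, 6.07 and 6.23. The 24 h arrays were low in each strain, and in B6 they overlapped vehicle by 1 array. Timp2 fell at 24 h by 0.54, 0.73 and 0.61 on the log2 scale (SE 0.17, adjusted p 0.00805, 0.000802 and 0.00328), the B6 value not called without vehicle replicate 3 (−0.42) or with arrays centred on their median (−0.30). At 2 h it fell in C3H (−0.55, adjusted p 0.00813), and −0.07 and −0.10 in B6 and F1 were not called.

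Timp4 gave no shared pattern. Its levels were −3.87, −3.38 and −3.92 in B6 vehicle, −3.40, −3.43 and −3.40 at 2 h, and −4.53, −4.75 and −3.71 at 24 h. The C3H arrays read −3.90, −3.72 and −3.63, then −3.02, −3.13 and −2.96, then −3.23, −3.92 and −3.83, and the F1 arrays −3.52, −3.84 and −3.59, then −3.35, −3.71 and −3.72, then −3.47, −3.72 and −3.58. Only the C3H arrays at 2 h stood clear of their vehicle. The rise in C3H at 2 h was 0.72 (SE 0.21, adjusted p 0.0058), and a fall of 0.60 was called in B6 at 24 h (adjusted p 0.0151). The latter was not called without any 1 of 3 arrays (−0.39 without 24 h replicate 2) or with arrays centred on their median (−0.37), and was −0.91 without 24 h replicate 3.

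**Figure D3:**
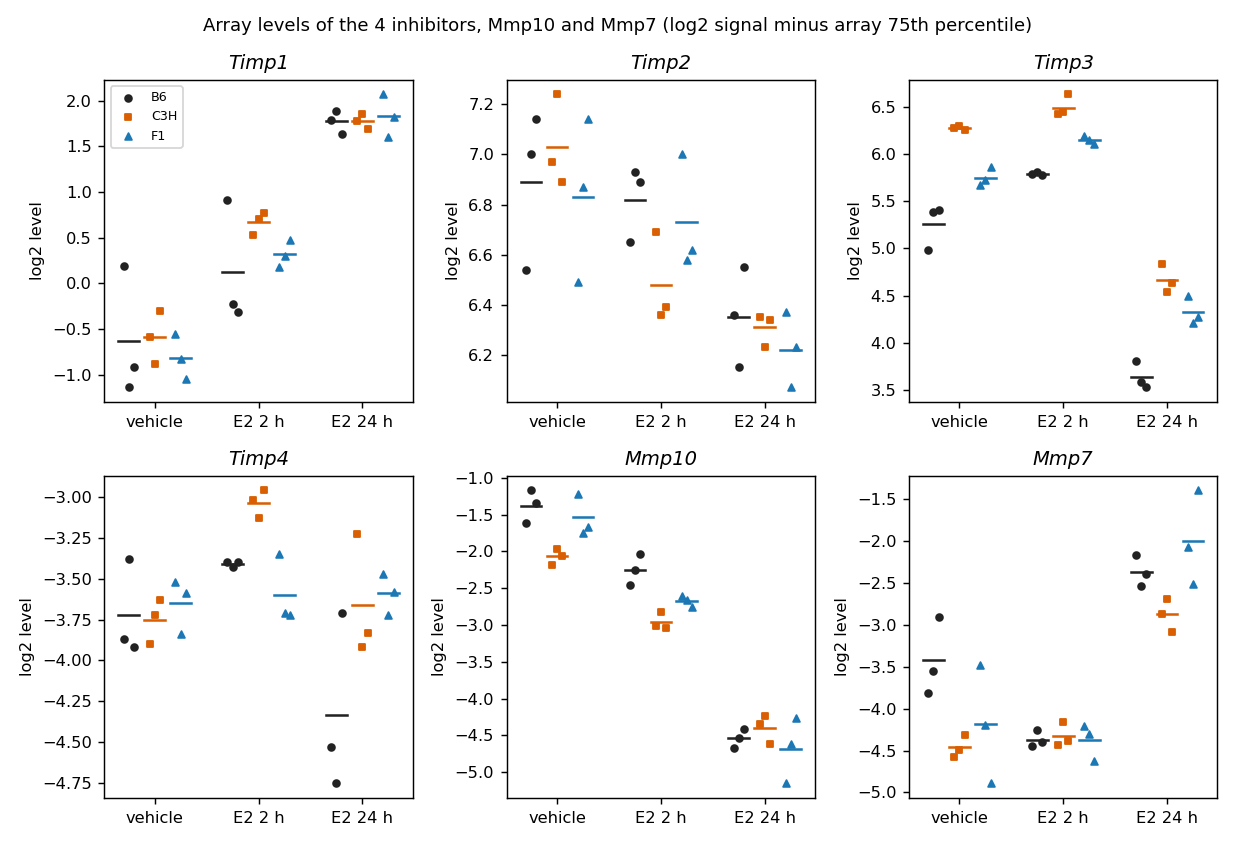
Log2 level relative to the array's 75th percentile on each of the 27 arrays for Timp1, Timp2, Timp3, Timp4, Mmp10 and Mmp7, by strain and by treatment; points are arrays and short lines are means of 3 arrays. Timp1 and Mmp7 are highest at 24 h and Timp3 and Mmp10 lowest at 24 h in each strain.

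Setting the E2 times against each other without vehicle, 32 members differed in B6 (68.6% of all genes), 12 higher at 24 h (35.5%) and 20 lower (33.1%). C3H gave 32 (70.6%), 16 higher (33.9%) and 16 lower (36.7%). F1 gave 31 (68.4%), 15 higher (37.6%) and 16 lower (30.8%). In all 3 strains 10 were higher (27.8%), and 3 of them by at least 2-fold (7.87%): Mmp7 (4-, 2.72- and 5.2-fold), Timp1 (3.15-, 2.15- and 2.84-fold) and Mmp28 (2.17-, 2.02- and 3.14-fold). In all 3 strains 13 were lower (24.4%), and 6 of them by at least 2-fold (8.43%). Adamts4 and Adamtsl2 (7.53-, 11.4- and 11.1-fold) stepped down furthest. The other 4 were Mmp10 (4.91-, 2.71- and 4-fold), Timp3 (4.43-, 3.54- and 3.52-fold), Adamts1 (4.04-, 3.08- and 3.98-fold) and Adamts8 (2.09-, 2.13- and 2.07-fold).

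Strains differed before any E2. In vehicle, 13 of the 41 members differed between C3H and B6 (24.1% of all genes), 9 higher (13.1%) and 4 lower (11.1%) in C3H. Between F1 and B6 7 differed (12.5%), 5 higher (5.17%) and 2 lower (7.33%) in F1. Between F1 and C3H 8 differed (14.3%), 1 higher (5.29%) and 7 lower (9.05%) in F1. The F1 splits were 3 and 2 against B6 and 0 and 7 against C3H with no scaling between arrays, 6 and 1 against B6 with quantile normalization, and 2 and 6 against C3H with median centring. In at least 1 pair 16 members were called (30.7% of all genes). Each vehicle group lay on other slides than those of the other strains. With slide as a term, which could be fitted only for C3H against B6, 1655 of the 21868 genes tested were called there. Of the 41 members 3 were called: Adamtsl2 (3.03), Mmp14 (0.82) and Timp3 (1.18). That fit ties the strains together through B6 24 h replicate 3, the only B6 array on the C3H vehicle slide, and B6 2 h replicate 1. Slide and those arrays cannot be told apart in it.

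In all 3 pairs 4 genes were called, each lowest in B6, highest in C3H and between them in F1: Adamtsl2, Adamts1, Mmp14 and Timp3. The share of all genes called in all 3 pairs was not counted, so this number and order are not read as a trait of the members. The mean level of the 5 mast cell markers lay in the same order, from −0.69 to −0.49 on the B6 vehicle arrays, −0.29 to 0.27 on those of F1 and 0.07 to 0.43 on those of C3H, and its part in these differences was not tested. Adamtsl2 was 2.82 higher in C3H than in B6 on the log2 scale (SE 0.27, adjusted p 5.74e-08) and 1.54 higher in F1 than in B6 (adjusted p 0.000509), and F1 lay 1.28 below C3H (adjusted p 0.00263). With normexp correction these became 1.46, 0.68 and −0.78. Adamts1 was 1.51 higher in C3H and 1.04 higher in F1 than in B6 (SE 0.15, adjusted p 1.58e-07 and 9.44e-05). The F1 value against C3H was −0.47 (adjusted p 0.0439), not called without any 1 of 15 arrays (−0.40 without F1 vehicle replicate 1), and the slide term left 1.07 between C3H and B6 (adjusted p 0.0947). Its second probe gave 1.32 and 1.05 against B6 (adjusted p 1.28e-06 and 9.92e-05) and −0.26 for F1 against C3H, not called.

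Mmp14 stood at 4.99, 4.92 and 4.90 in B6 vehicle, 6.03, 5.92 and 5.97 in C3H and, for F1, 5.46, 5.39 and 5.58 (probe at chr14:49308207-49308266, mm7). After E2 the order remained, with 4.41, 4.49 and 4.43 in B6, 5.33, 5.35 and 5.29 in C3H and, for F1, 4.92, 4.79 and 4.67, all at 2 h. At 24 h the arrays read 4.64, 4.63 and 4.80 in B6, 5.64, 5.45 and 5.52 in C3H and, for F1, 5.23, 5.01 and 5.14. No array of one strain reached the range of another within a treatment. C3H exceeded B6 by 1.04 in vehicle (SE 0.07, adjusted p 5.14e-10), and F1 exceeded B6 by 0.55 and lay 0.50 below C3H (adjusted p 2.98e-05 and 9.11e-05). The second Mmp14 probe did not show this: it gave −0.23, −0.07 and 0.15 for the same pairs, none called. Timp3, whose array values stand with the inhibitors, was 1.01 higher in C3H and 0.49 higher in F1 than in B6 (SE 0.11, adjusted p 2.49e-07 and 0.00385), and 0.52 lower in F1 than in C3H (adjusted p 0.00197).

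Other vehicle differences were smaller or rested on fewer arrays. Adamts4 was 0.81 higher in C3H than in B6 (adjusted p 0.00339), but 0.10 with slide as a term, and Adamts9 was 0.75 lower in C3H (adjusted p 0.00101). Adamtsl3 was 0.60 higher in C3H than in B6 and 0.59 lower in F1 than in C3H (adjusted p 0.00317 and 0.00681). Mmp10 was 0.69 lower in C3H than in B6 (adjusted p 0.00661). Mmp7 was 1.04 lower (adjusted p 0.0101), not called without B6 vehicle replicate 3 (−0.78).

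Adamts3 stood at −2.53, −2.84 and −2.59 in B6 vehicle, −3.17, −3.20 and −3.12 in C3H and, for F1, −2.95, −3.27 and −3.11, with B6 above both others. The differences from B6 were −0.51 in C3H and −0.46 in F1 (adjusted p 0.000727 and 0.00477), and a dimmer probe gave −2.62 and −1.33. Mmp17 was 0.39 higher in C3H than in B6 and 0.35 lower in F1 than in C3H (adjusted p 0.00259 and 0.0117), the latter not called without either of 2 arrays (−0.29 without C3H vehicle replicate 3). Mmp16 stood at −1.70, −1.82 and −1.71 in B6, −1.4, −1.52 and −1.39 in C3H and, for F1, −1.55, −1.49 and −1.53. It was 0.30 higher in C3H and 0.21 higher in F1 than in B6 (adjusted p 0.00147 and 0.034), the F1 value not called without any 1 of 5 arrays (0.17 without B6 vehicle replicate 2).

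Mmp15 stood at −1.76, −1.36 and −1.38 in B6 vehicle and −1.12, −1.06 and −1.11 in C3H. These did not overlap, and B6 replicate 1 was the lowest array. The difference of 0.40 (adjusted p 0.0131) was not called without that array, B6 vehicle replicate 1 (0.27). Mmp25, a lipid-anchored MMP of leukocytes, was well above background on 10 of 27 arrays. It passed the filter only through 2 groups, B6 vehicle and B6 2 h. F1 vehicle and B6 24 h had it well above background on 0 arrays. The filter thus favoured a high B6 vehicle level, and the p-values of its differences from those groups are not independent of it. The B6 vehicle arrays of Mmp25 read −4.13, −6.37 and −5.88 and its F1 vehicle arrays −7.21, −6.71 and −6.70, a difference at least 2.34-fold (adjusted p 0.0357) that was −0.75 and not called without B6 vehicle replicate 1. At 24 h after E2 the B6 arrays read −7.07, −7.59 and −6.62, at least 2.64-fold below vehicle (adjusted p 0.00217). On the log2 scale that difference was −1.63, −0.97 without B6 vehicle replicate 1 and, with slide as a term, −1.25 (SE 0.84, adjusted p 0.236), not called. Adamts8 was 0.33 lower and Adamts10 0.33 higher in F1 than in C3H (adjusted p 0.0419 and 0.029), each not called without any 1 of 5 arrays (−0.26 without F1 vehicle replicate 2 and 0.29 without C3H vehicle replicate 3).

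The E2 response itself differed between strains for few members. At 2 h, 3 members differed in at least 1 pair of strains (2.44% of all genes), and at 24 h 4 (19.8%). Between C3H and B6 these were 3 members at 2 h (2.16% of all genes) and 4 at 24 h (18.7%), and between F1 and B6 1 member at 2 h (0.599%) and 2 at 24 h (1.90%). Between F1 and C3H it was 1 member at 24 h (3.70%). At 2 h 0.229% of all genes were called in that last pair, in which the differences for Adamts6 and Adamtsl2 were 0.51 (SE 0.16) and 1.39 (SE 0.38), not called.

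Adamts6 fell further in C3H than in B6 at 2 h by 1.46 on the log2 scale (SE 0.16, adjusted p 1.05e-05) and further in F1 than in B6 by 0.95 (adjusted p 0.00438). Its vehicle levels were close, from −2.54 to −2.08 over all 3 strains, so most of this difference lay in the 2 h levels. With slide as a term the F1 value was −1.08 (adjusted p 0.0465). Adamtsl2 rose less in C3H than in B6 at 2 h, by 2.34 (SE 0.38, adjusted p 0.00118), and here the difference lay in the vehicle levels, as its arrays above show. At 24 h its response was 2.94 lower in C3H than in B6 (adjusted p 4.42e-05), 1.51 lower in F1 than in B6 (adjusted p 0.044) and 1.43 higher in F1 than in C3H (adjusted p 0.0402). The F1 values were not called without any 1 of 18 arrays (−1.63 to −1.17) and of 9 arrays (1.15 to 1.49).

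The other response differences were smaller. Mmp19 rose 0.91 more in C3H than in B6 at 2 h (SE 0.22, adjusted p 0.034), not called without any 1 of 7 arrays (0.79 without B6 vehicle replicate 1). Mmp10 fell 0.83 less in C3H than in B6 at 24 h (SE 0.25, adjusted p 0.0263), not called without any 1 of 5 arrays (0.73 to 0.82). Adamtsl3 fell less in C3H and in F1 than in B6 at 24 h, by 0.62 and 0.93 (SE 0.20, adjusted p 0.0341 and 0.0205), not called without any 1 of 7 (0.55 to 0.61) and of 2 arrays (0.83 and 0.88). With normexp correction these were 0.13 and 0.38, neither called.

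Adamts10 stood at −0.62, −0.29 and −0.28 in B6 vehicle and −1.35, −1.35 and −1.57 at 24 h, against −0.50, −0.68 and −0.72 and then −1.18, −1.04 and −1.20 in C3H, and −0.34, −0.25 and −0.32 and then −1.32, −1.23 and −1.09 in F1. It fell in each strain without overlap, and 0.53 less in C3H than in B6 (SE 0.14, adjusted p 0.0121).

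**Figure D4:**
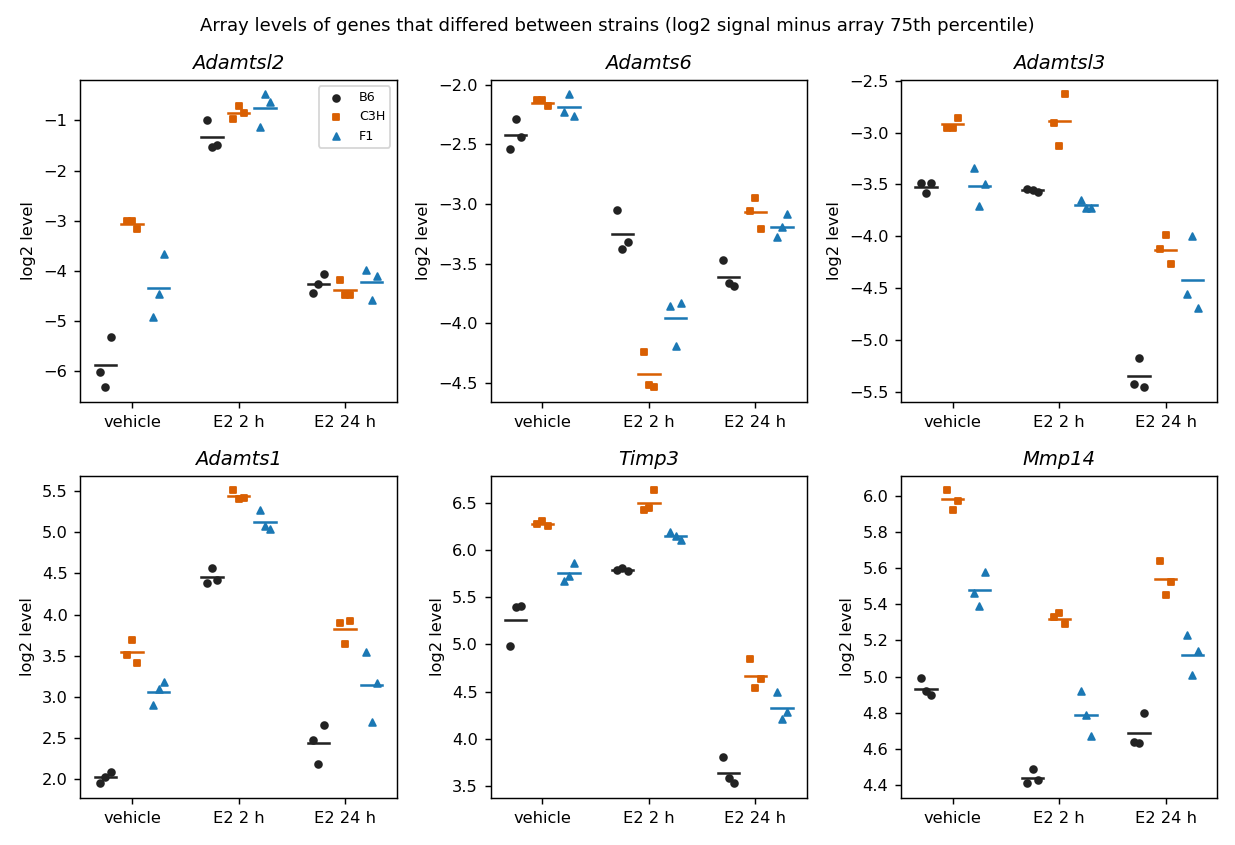
Log2 level relative to the array's 75th percentile on each of the 27 arrays for Adamtsl2, Adamts6, Adamtsl3, Adamts1, Timp3 and Mmp14, by strain and by treatment; points are arrays and short lines are means of 3 arrays. Adamtsl2 differs between strains in vehicle (means −5.88, −3.06 and −4.34 in B6, C3H and F1) and converges at 2 h, whereas Adamts6 differs at 2 h.

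Adamts1 and Adamtsl2, which rose at 2 h in each strain, have a TATA box (TATAAA, read on the coding strand) in the 250 bases before their start. They are 2 of the 5 members that rose in all 3 strains at 2 h and have a promoter in RefSeq, and the other 3, Adamts2, Adamts9 and Timp1, have none in this window. This motif was in 9 of the 32 members with a promoter in RefSeq and in 8.94% of 27025 genes, and the other 7 were Mmp1a, Mmp3, Mmp7, Mmp10, Mmp13, Mmp20 and Mmp21. The windows are shown for the pair, 5′ to 3′ on the coding strand with the motif in capitals (GRCm38.p6; minus strand for Adamts1, plus strand for Adamtsl2).

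Adamts1, chr16:85803120-85803165: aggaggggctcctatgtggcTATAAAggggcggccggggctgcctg

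Adamtsl2, chr2:27079329-27079374: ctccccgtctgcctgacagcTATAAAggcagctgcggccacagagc

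The motif's first base was at −32 in Adamts1 and at −30 in Adamtsl2. The consensus estrogen response element, GGTCA and TGACC with 3 bases of any kind between them, was searched for on both strands and matched in 0 of the 32 members and in 0.0666% of all genes. These letters are not in this short window, and nothing about receptor binding follows from it. Promoters of Adamts4, Adamts5, Adamts8, Mmp17 and Mmp19 were not analysed here.

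Other genes of extracellular proteolysis were counted in the same way. Of 45 tested genes on 3 lists (activation of proteases, ADAM and astacin proteases, substrates and binding partners), 11, 11 and 10 rose at 2 h (23.1%, 24.8% and 23.6% of all genes) and 11, 9 and 9 fell (33.1%, 35.5% and 35.5%). At 24 h 16, 16 and 17 rose (30.8%, 27.1% and 31.8%) and 15, 20 and 13 fell (37.1%, 40.1% and 36.7%). Median centring moved the C3H split at 2 h to 17 and 6, and the 24 h splits of B6 and C3H to 21 and 13 and to 20 and 14. With no scaling the 2 h splits of C3H and F1 were 15 and 6 and 16 and 4, and the C3H split at 24 h was 18 and 15.

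The plasminogen system, which can activate pro-MMPs, was strongly moved at 2 h. Of 12 genes on the activation list, 6 rose in each strain and 3, 2 and 2 fell, to be read against the same shares of all genes. Plaur, the urokinase receptor, rose by 2.89, 2.83 and 2.97 on the log2 scale (SE 0.11, adjusted p at most 2.69e-14). Plau, urokinase itself, rose by 1.64, 1.4 and 1.75 (SE 0.19, adjusted p at most 1.81e-06). Plat, tissue plasminogen activator, fell by 0.51, 0.63 and 0.73 at 2 h and by 1.67, 1.90 and 1.47 at 24 h (SE 0.10, adjusted p at most 0.000139 and 4.92e-11). At 24 h Plaur was still up by 1.43, 1.04 and 1.62. Plau was not: it had fallen below vehicle in C3H (−1.13, adjusted p 2.37e-05), and −0.25 in B6 and −0.23 in F1 were not called.

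Plg, plasminogen, fell, with changes of −1.37, −1.25 and −1.51 at 2 h and −3.02, −2.12 and −1.70 at 24 h (SE 0.42). So did Pzp, a plasma protease inhibitor, with −1.38, −1.31 and −1.70 and then −2.75, −1.61 and −1.65 (SE 0.43). Both are made chiefly in the liver. The 3 liver markers on the array (of 4 listed) moved with them: 3 of 3 fell at 24 h in each strain (37.1%, 40.1% and 36.7% of all genes), with medians of −3.40, −2.68 and −2.21. Their mean level was −2.40 to −0.37 on the B6 vehicle arrays and −5.31 to −4.39 at 24 h, −3.59 to −2.61 and −6.16 to −5.42 in C3H, and −3.94 to −3.24 and −6.18 to −5.56 in F1. Their part in the Plg and Pzp results was not tested.

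Substrates moved at both times. Vcan, encoding versican, which several of the proteoglycanases cut, was higher by 2.02, 1.58 and 1.76 at 24 h (SE 0.16, adjusted p at most 2.54e-08). At 2 h Vcan fell in C3H (−0.40, adjusted p 0.0323), with −0.11 and 0.02 in B6 and F1 not called. Ncan, the related proteoglycan neurocan, was higher by 3.69, 4.14 and 3.98 at 2 h (SE 0.24, adjusted p at most 5.92e-11) and by 0.70, 1.03 and 0.71 at 24 h. Eln, encoding elastin, rose at 2 h by 0.80, 0.85 and 0.89 (SE 0.19, adjusted p at most 0.00126), and Cd44, a hyaluronan receptor, fell by 0.49, 0.47 and 0.60 (SE 0.16, adjusted p at most 0.0171). Comp, cartilage oligomeric matrix protein, fell by 1.92, 1.74 and 2.13 at 24 h, and Thbs1, thrombospondin-1, by 1.82, 1.83 and 1.06.

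Among partners of MMPs at 24 h, Lcn2, whose protein can form a complex with Mmp9 protein, rose by 3.97, 4.79 and 4.04 (SE 0.24, adjusted p at most 1.13e-11). A2m, a broad protease trap, rose by 3.30, 3.67 and 3.26 (SE 0.41, adjusted p at most 6.11e-07). Reck, a membrane-anchored MMP inhibitor, fell by 0.84, 0.51 and 0.75. Of the 11 tested ADAM and astacin genes, 2, 4 and 3 rose at 24 h (30.8%, 27.1% and 31.8% of all genes) and 2, 3 and 1 fell (37.1%, 40.1% and 36.7%). Adam12 rose by 1.49, 1.42 and 1.37 at 24 h (SE 0.23, adjusted p at most 2.55e-05).

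Markers of uterine layers moved as well. Of 6 stromal markers 1 rose and 4 fell at 2 h in each strain, with mean levels of 3.65 to 3.96 in vehicle and 3.1 to 3.54 at 2 h. Of 6 muscle markers 4, 4 and 6 rose at 24 h, and of 5 endothelial markers 4, 2 and 4 fell. All 5 mast cell markers fell at 24 h in B6 and F1 and 4 of 5 in C3H, from mean levels of −0.69 to 0.43 in vehicle to −1.82 to −0.26. Of all genes 23.1%, 24.8% and 23.6% rose and 33.1%, 35.5% and 35.5% fell at 2 h. At 24 h 30.8%, 27.1% and 31.8% rose and 37.1%, 40.1% and 36.7% fell. What the marker shifts contribute to the members' changes was not tested.

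Of the members 16 had more than 1 probe that passed the filter, and the brightest was used. Sizes differed between probes. At 2 h the other Adamts9 probes gave 1.44, 1.61 and 1.46 and then 2.72, 1.71 and 2.44. The other Adamts10 probes gave −1.56, −2.07 and −1.85 and then −0.57, −0.63 and −0.71. Calls of opposite sign on 2 probes of 1 gene arose for Adamts2, Adamts3, Adamts9, Adamts10, Adamts12, Adamtsl5 and Mmp24, each in at least 1 comparison. For Adamts3 in C3H at 2 h the probes gave −0.33 and 0.86, and for Adamts12 in C3H at 24 h −0.53 and 0.41. Directions between 2 h and 24 h and small changes of these 7 genes hold for the probe used only.

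**Figure D5:**
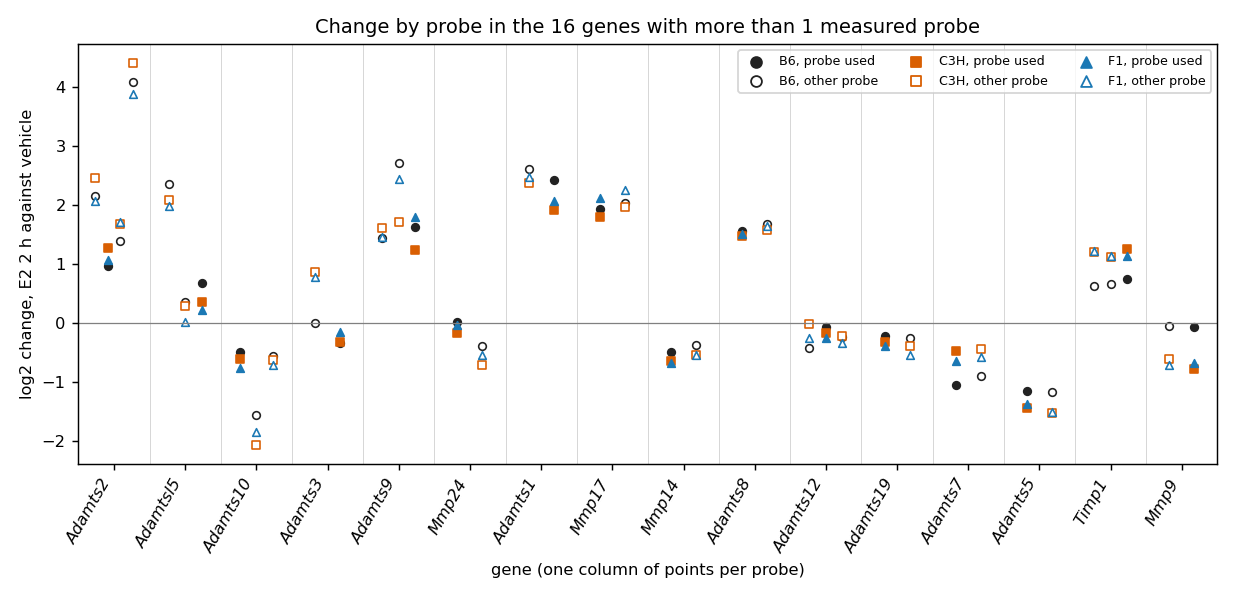
Change in log2 level at 2 h against vehicle for each passing probe of the 16 members with more than 1 probe, by strain; filled points are the probe used. The Adamts2 probes spread from 0.97 to 4.41, all above 0, and the Adamts3 probes lie on both sides of 0.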

How the data were processed

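Whole-uterus RNA was labelled with Cy3 and hybridised to 1-colour Agilent mouse arrays, 27 in all. Intensities were read with Agilent Feature Extraction 9.5.3.1, per the file headers (9.5 in the submitters' processing notes), and its processed signal is background-corrected and given in linear units. The deposited value table equals that signal on all 45018 spots of each array, with column medians of 120.2 to 160.7.

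Control spots (1639) and outlier spots (48 to 117 an array) were left out. Each processed signal was put on the log2 scale, less the log2 of its array's 75th percentile (1148 to 1483 units). A probe was kept if some group had it well above background on each of its 3 arrays (32901 probes), and the brightest probe stood for a gene. Names were updated through RefSeq accessions where these matched (22951 probes); 2 probes with RIKEN names that RefSeq now lists as Adamtsl1 and Adamtsl3 were kept apart. Limma 3.58.1 in R 4.3.3 fitted 1 model of 9 groups and 18 contrasts, tested on simulated data with known changes. Python 3.11.15, pandas 2.3.3 and matplotlib 3.10.9 did the rest. The number of arrays limits the precision.

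Members called at least 2-fold in 1 direction in all strains, members called between strains and all TIMPs are given array by array. Other lists were proteolysis genes (activation, ADAM and astacin, substrates and partners) and markers of uterus, epithelium, stroma, muscle, endothelium, macrophages, neutrophils, mast cells, T and B cells (1 of 5 fell at 24 h in each strain), adipocytes (1 of 5 fell at 24 h in B6 and 4 in F1), ovary and oviduct (4 of 5 tested), liver and decidua (0 of 3 tested). Of all genes tested 37.1%, 40.1% and 36.7% fell at 24 h in B6, C3H and F1. The members and lists were chosen with earlier results of these data known. Same-numbered arrays of different groups did not deviate together (correlations −0.12 to 0.17), so replicate numbers were not taken as pairs. Alternatives covered background correction, scaling, filters, probe choice, the arrays fitted, slide, replicate block and each array left out.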

Additional observations from a re-analysis of the deposited data

Results flagged for a closer look

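These results stood out because the E2 response differed between 2 strains, tested as an interaction in the limma model of all 9 groups with adjustment over all genes. Differences of C3H and of F1 from B6 share the B6 arrays and are not independent of each other.

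Adamts6 fell further at 2 h in C3H than in B6, by −1.46 on the log2 scale (SE 0.16, adjusted p 1.05e-05), and further in F1 than in B6, by −0.95 (SE 0.16, adjusted p 0.00438). All 3 arrays of C3H and of F1 lay below all 3 of B6 at 2 h. Adamtsl2 rose less in C3H than in B6 at 2 h (−2.34, SE 0.38, adjusted p 0.00118). At 24 h its response differed in each pair: −2.94 for C3H against B6 (adjusted p 4.42e-05), −1.51 for F1 against B6 (adjusted p 0.044) and 1.43 for F1 against C3H (adjusted p 0.0402).

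Adamts10 fell less at 24 h in C3H than in B6 (0.53, adjusted p 0.0121). Adamtsl3 fell less at 24 h in C3H (0.62, adjusted p 0.0341) and in F1 (0.93, adjusted p 0.0205) than in B6. Mmp10 fell less at 24 h in C3H than in B6 (0.83, adjusted p 0.0263), and Mmp19 rose more at 2 h in C3H than in B6 (0.91, adjusted p 0.034). The Mmp10 and Mmp19 values, both Adamtsl3 values and the Adamtsl2 values of F1 were each not called when 1 of several single arrays was left out.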

How the results depend on the processing

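Of 209 counts recomputed under other settings, 203 stayed within 1.5 times the reported count. The other 6 were 3 members in vehicle for C3H against B6 with slide as a term (13 reported), 2 for F1 against B6 with only the groups compared (7), 5 for F1 against C3H with the mean of a gene's probes (8), 2 for the 24 h responses with the deposited table unscaled (4), and, for other proteolysis genes in B6 at 2 h, 13 with only the groups compared and 14 with slide as a term (22). The cause was not tested. With single arrays left out, 536 of 540 counts stayed within that bound. The range was 4 to 9 for F1 against C3H in vehicle (4 without C3H vehicle replicate 3, 5 without C3H vehicle replicate 2 or F1 vehicle replicate 2) and 13 to 23 for the other proteolysis genes in B6 at 2 h (13 without B6 2 h replicate 3). Other ranges for the members were 26 to 29, 27 to 29 and 25 to 29 at 2 h, 28 to 33, 27 to 30 and 23 to 28 at 24 h, and 2 to 4 and 3 to 6 for the responses.

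For the calls of 38 single members, 3011 of 3202 values kept their direction and call, 180 lost the call and 11 turned. With the mean of probes these were Adamts2 from 2 h to 24 h in B6 (−0.68) and F1 (−0.71), Adamts3 at 2 h in C3H (0.27), Adamts9 from 2 h to 24 h in C3H (−0.06), and Adamts12 in C3H at 24 h against vehicle (−0.18) and against 2 h (−0.04). With slide as a term they were Adamts5 (0.16) and Adamts7 (0.03) at 24 h in B6 and Adamts18 from 2 h to 24 h in C3H (0.19), and with quantile normalization Mmp14 from 2 h to 24 h in B6 (−0.05) and C3H (−0.05). With single arrays left out, 8007 of 8208 kept both and 201 lost the call. With the replicate number as a block, members called were 28, 27 and 27 at 2 h, 32, 29 and 28 at 24 h and 14, 7 and 9 in vehicle.

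The normexp correction took its parameters from 153 negative control spots, a choice made after seeing the data, because the default set the 1st percentile of 6 arrays above 100 units. Normexp shrank changes of dim probes. Dim signal limits Mmp8 and Mmp25, each well above background on at most 10 of 27 arrays.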
